A study of Homo sapiens with 9 samples.

Results

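The genes of polyamine metabolism were followed here through 9 RNA-seq libraries of prostate cancer cell lines. They are 10 genes, chosen by name for their place in the pathway and with no threshold on a measured value, of 28216 genes in the deposited table, and all 10 were found in it. By role they are the synthesis genes ODC1, AMD1, SRM and SMS, the agmatine route gene AGMAT, the breakdown genes SAT1, SMOX and PAOX, and OAZ1 and AZIN1, whose products control the ODC1 protein. The first group was PC3, 3 libraries of untreated cells grown in F12K medium with 10% serum. The second was LNCaP cells of clone FCG given 10 nM androgen for 48 h, again with 3 libraries. The androgen is dihydrotestosterone (DHT) in the labels and R1881 in the main text of the study. The third group was 3 libraries of the same LNCaP clone given vehicle, 0.01% ethanol, for 48 h. Both LNCaP groups had first spent 24 h in phenol red-free RPMI with 10% charcoal-stripped serum, which is depleted of steroids. PC3 and LNCaP are established lines grown from metastases of prostate cancer and are labelled wild type. Cell line, medium, serum (stripped only for LNCaP) and treatment with androgen or vehicle differ together between PC3 and LNCaP. Their shares in a difference cannot be told apart.

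Polyamines are small positively charged molecules that bind nucleic acids and are needed for growth. Ornithine decarboxylase (ODC1) makes putrescine, and spermidine synthase (SRM) and spermine synthase (SMS) lengthen it in turn with aminopropyl groups supplied by the product of AMD1, while SAT1 acetylates spermine and spermidine so that they can be exported or oxidised by PAOX, and SMOX oxidises spermine directly. The prostate is known for secreting polyamines in unusual amounts into seminal fluid. Antizyme (OAZ1) delivers ODC1 to the proteasome, and the antizyme inhibitor (AZIN1) binds antizyme in its place.

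The 4 synthesis or breakdown genes that rose most with androgen are ODC1, AMD1, SMS and SAT1, and the stretches just before their start sites are shown because these genes moved together. They come from RefSeq promoter windows (build GRCh38.p14), each cut where an annotated exon begins, and are written 5′ to 3′ on the strand of the gene. ODC1 is chr2:10448328-10448577 (minus strand), AMD1 chr6:110874535-110874769 (plus), SMS chrX:21940459-21940708 (plus) and SAT1 chrX:23782923-23783172 (plus). SRM, chr1:11060021-11060268 (minus), is shown beside them as the synthesis gene that moved least. Capitals mark the E-box CACGTG, a palindrome that MYC and related factors bind.
ODC1: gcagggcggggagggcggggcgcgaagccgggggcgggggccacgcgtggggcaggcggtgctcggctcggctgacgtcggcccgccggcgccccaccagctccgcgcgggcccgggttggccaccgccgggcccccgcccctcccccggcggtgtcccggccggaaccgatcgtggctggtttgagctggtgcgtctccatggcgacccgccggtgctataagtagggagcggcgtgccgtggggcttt
AMD1: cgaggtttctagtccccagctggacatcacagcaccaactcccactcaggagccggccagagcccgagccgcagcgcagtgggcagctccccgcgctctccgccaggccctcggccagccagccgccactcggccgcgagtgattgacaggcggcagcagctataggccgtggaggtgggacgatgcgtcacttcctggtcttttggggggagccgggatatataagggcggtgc
SMS: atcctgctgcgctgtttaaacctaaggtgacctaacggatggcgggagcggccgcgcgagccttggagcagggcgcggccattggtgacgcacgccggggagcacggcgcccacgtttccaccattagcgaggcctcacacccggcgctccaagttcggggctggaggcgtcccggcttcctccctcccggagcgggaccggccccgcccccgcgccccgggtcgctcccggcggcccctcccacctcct
SAT1: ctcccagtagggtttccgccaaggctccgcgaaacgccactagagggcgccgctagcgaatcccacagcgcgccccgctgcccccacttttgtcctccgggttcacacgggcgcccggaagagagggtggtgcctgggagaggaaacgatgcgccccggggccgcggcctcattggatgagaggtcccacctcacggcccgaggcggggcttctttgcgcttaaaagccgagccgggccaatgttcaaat
SRM: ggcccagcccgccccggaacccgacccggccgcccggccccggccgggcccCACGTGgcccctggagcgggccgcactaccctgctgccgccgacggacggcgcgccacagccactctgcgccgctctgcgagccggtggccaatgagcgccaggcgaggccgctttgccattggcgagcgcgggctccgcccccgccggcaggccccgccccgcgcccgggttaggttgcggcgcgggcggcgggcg

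Both strands of the 250 bases before each start were searched for the E-box. RefSeq held 10 such windows for 7 of the 10 genes, and SMOX, PAOX and AZIN1 were without an entry in the table. The E-box was in 6.34% of all 35116 windows. The window of SRM held 1 E-box, and the window before a second ODC1 start held another. That E-box lies 286 bases after the main ODC1 start, and a second one begins 34 bases further on, 320 bases after it. The pair is shown because ODC1 is a textbook MYC target with paired E-boxes in its first intron, and alternative ODC1 transcripts begin within the stretch. It covers chr2:10447996-10448047 (minus strand), with both E-boxes in capitals.
ODC1 intron: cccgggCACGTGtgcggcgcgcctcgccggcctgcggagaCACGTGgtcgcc

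Library depth on genes ran from 17397706 to 25640325 counts (median 21434125). Levels are in CPM, counts adjusted for library size with TMM factors over all 9 libraries, and a count of 0 allows up to 3 counts, which is 0.117 to 0.172 CPM depending on the library. This limit covers counting error only. Of 6 luminal prostate markers, KLK2 had at most 3 counts in any PC3 library, and the list summed to 504 to 847 CPM in PC3, 9834 to 10190 CPM with androgen and 2742 to 3116 CPM with vehicle. The 4 PC3 markers VIM, CD44, AXL and CAV1 reached 0.0689% to 0.874% of their PC3 mean in LNCaP libraries, highest in androgen replicate 1. Without that library the calls of the polyamine genes were the same. Epithelial markers (3 genes) summed to 442 to 454, 2843 to 3066 and 709 to 724 CPM in PC3, androgen-treated and vehicle-treated libraries, fibroblast markers (4 genes) to 33.6 to 43.1, 12.5 to 15.2 and 21.7 to 24.3, and immune markers (3 genes) to 32.7 to 34.5, 15.7 to 22.9 and 1.59 to 2.30. Endothelial markers (2 genes) summed to 1.91 to 3.38, 6.84 to 7.89 and 16.0 to 17.9 CPM in the same order. DCN and CD3E had at most 3 counts in every library. PTPRC and PECAM1 did so in the LNCaP libraries and VWF in those of PC3. The immune sum of LNCaP and the endothelial sums thus rest on 1 gene each. The part of these lists in the results below was not tested. All libraries come from cultured lines, so the sums are not read as numbers of fibroblast, immune or endothelial cells. In bulk RNA, fewer cells expressing a gene and less RNA per cell cannot be told apart. Nothing in the labels says whether libraries of a group came from separate cultures, so p-values measure the spread between these libraries, which may be technical.

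Androgen raised the RNA of ODC1, AMD1, SMS and SAT1 by 2.62-fold to 13.6-fold, and no polyamine gene fell by as much as 2-fold. The question was what androgen does to LNCaP cells, and it was tested with edgeR's quasi-likelihood test on 6 libraries with Benjamini-Hochberg adjustment over all genes. Calls needed an adjusted p under 0.05 together with a change of 2-fold or more. Of the 9 polyamine genes that passed the filter on low counts, 4 were called higher and 0 lower, against 6.54% of all 11697 genes called higher and 7.49% called lower. DESeq2 also called 4 higher and 0 lower. On the adjusted p alone 7 were higher and 2 lower, and so were 7 and 2 at an unadjusted p under 0.05. All 9 thus passed the adjusted p, which 74.9% of all genes did as well. The median log2 fold change was 0.38 over the 9 genes and -0.01 over all genes. AGMAT was left out by the filter, with 1 to 7 counts in androgen-treated and 0 to 1 in vehicle-treated libraries.

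ODC1 is the first enzyme of the pathway and is rate-limiting for it (chromosome 2, 10439968 to 10448327 of GRCh38, minus strand). It had 3355, 3198 and 3601 CPM in the 3 androgen-treated libraries and 723, 721 and 714 CPM in the vehicle-treated ones. Every androgen-treated library lay far above every vehicle-treated one, and the vehicle values were almost the same. The small nucleolar RNA gene SNORA80B lies within ODC1 on the same strand, while DNAJC16 and JSRP1 overlap AGMAT and OAZ1 on the other strand, which the forward-strand counts leave out. The log2 fold change of ODC1 was 2.21 (standard error, SE, 0.05, with adjusted p = 4.87e-13 from edgeR), a 4.61-fold rise. AMD1, which makes the aminopropyl donor (chromosome 6, 110874770 to 110898879, plus strand), had 1968, 1956 and 1886 CPM with androgen and 762, 692 and 719 CPM with vehicle. Its groups were also apart, with a smaller step than in ODC1. AMD1 rose 2.62-fold (log2 fold change 1.39, SE 0.04, adjusted p = 4.54e-12 from edgeR).

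The last synthesis steps behaved unequally. SMS, which turns spermidine into spermine (chromosome X, 21940709 to 21994837, plus strand), had 1120, 1177 and 1275 CPM with androgen against 145, 137 and 141 CPM with vehicle. All androgen-treated libraries were high and all vehicle-treated libraries low, with no overlap. SMS rose 8.27-fold (log2 fold change 3.05, SE 0.06, adjusted p = 1.13e-13 from edgeR). Of the 74-nt stretches of SMS transcripts, 18.0% also occur elsewhere, mostly in a chromosome 1 copy, so its level is uncertain. SRM, which makes spermidine (chromosome 1, 11054584 to 11060020, minus strand), had 219, 196 and 206 CPM with androgen and 181, 170 and 169 CPM with vehicle. The groups did not overlap, but the gap between them was small. SRM was higher by a log2 fold change of 0.23 (SE 0.04, adjusted p = 0.000244 from edgeR), under 2-fold and therefore not called.

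SAT1, the acetyltransferase that starts back-conversion and export (chromosome X, 23783173 to 23786210, plus strand), had the largest fold change with androgen among the 9 genes tested. It had 1206, 1215 and 1178 CPM in androgen-treated libraries and 91.4, 82.0 and 86.3 CPM in vehicle-treated ones. The androgen-treated libraries differed little from each other and stood far above the vehicle-treated libraries. The log2 fold change of SAT1 was 3.76 (SE 0.04, adjusted p = 4.02e-15 from edgeR), a 13.6-fold rise. SMOX, the spermine oxidase (chromosome 20, 4120980 to 4187747, plus strand), was low in both groups, at 9.46 to 10.3 CPM with androgen and 6.05 to 8.32 CPM with vehicle. Its log2 fold change was 0.38 (SE 0.12, adjusted p = 0.0122 from edgeR). PAOX, which oxidises acetylated polyamines (chromosome 10, 133379261 to 133391694, plus strand), had 7.20 to 7.65 and 5.55 to 6.54 CPM and a log2 fold change of 0.29 (SE 0.11, adjusted p = 0.0291 from edgeR). Both genes passed the adjusted p without reaching 2-fold. For PAOX, 54.2% of the 74-nt stretches also occur elsewhere, and 1292 of all 2532 occur in transcripts of an overlapping gene on the same strand, so its level is uncertain.

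OAZ1 and AZIN1 were slightly lower with androgen. OAZ1 (chromosome 19, 2269509 to 2273490, plus strand) had 968, 907 and 917 CPM with androgen and 996, 947 and 970 CPM with vehicle, and these ranges overlapped. Its log2 fold change was -0.09 (SE 0.03, adjusted p = 0.0304 from edgeR). AZIN1 (chromosome 8, 102826111 to 102893864, minus strand) had 239, 221 and 216 CPM with androgen and 260, 256 and 266 CPM with vehicle. The groups of AZIN1 were apart by a narrow gap. AZIN1 was lower by a log2 fold change of -0.24 (SE 0.04, adjusted p = 0.000107 from edgeR), also under 2-fold. Counts measure RNA only, and ODC1, AMD1 and OAZ1 are known to be controlled in translation or protein turnover as well.

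**Figure D1:**
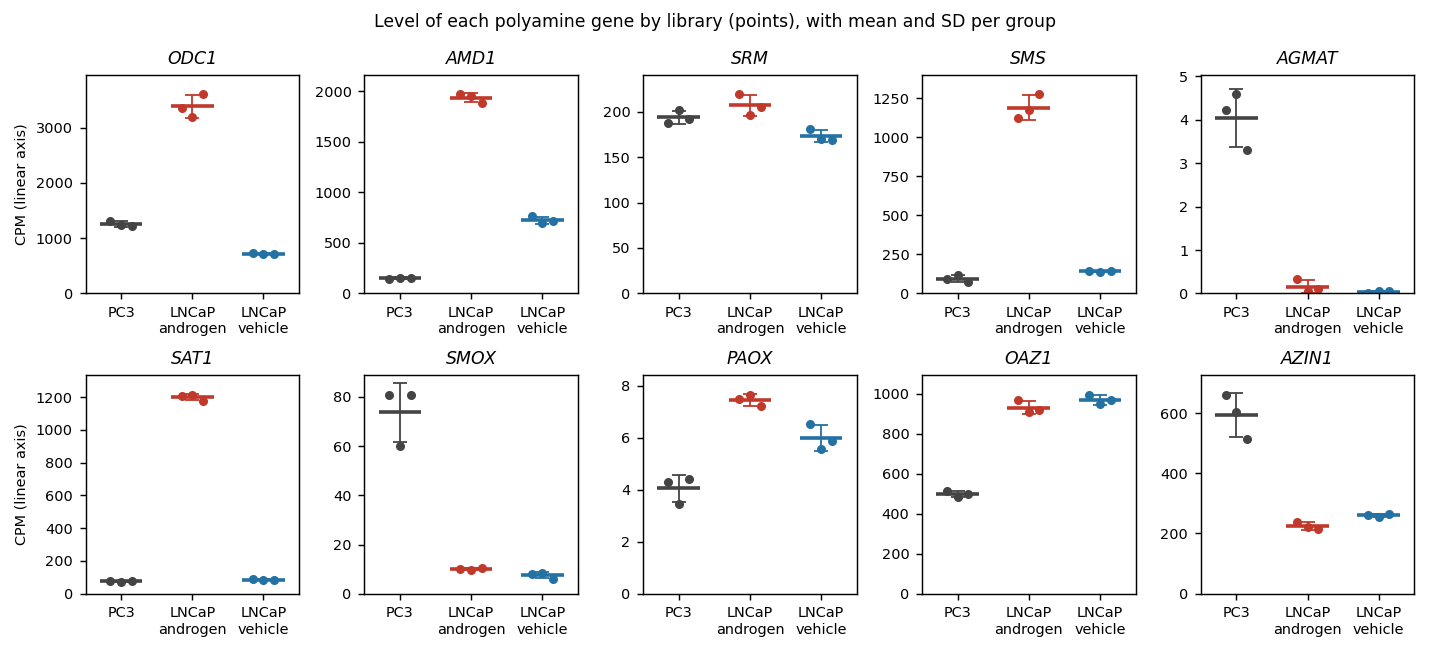
Level of each polyamine gene in CPM on a linear axis from 0, one panel per gene. Points are the 3 libraries of each group, horizontal lines the mean and error bars the SD (n = 3). The androgen-treated libraries of ODC1, AMD1, SMS and SAT1 stand above all others, and those of PC3 do so for AGMAT, SMOX and AZIN1.

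The order of the 3 groups differed between the 10 genes. In AMD1, SMS, SAT1 and PAOX the mean was highest with androgen, then with vehicle, and lowest in PC3, with no overlap between neighbouring groups. ODC1 was highest with androgen, with PC3 in the middle and vehicle lowest, again without overlap. SMOX had PC3 first, then androgen, then vehicle, and AZIN1 had PC3 first, then vehicle, then androgen, each without overlap. In SRM the androgen and PC3 libraries overlapped and the vehicle libraries lay below both, although with scaling by total counts PC3 and vehicle overlapped too. In OAZ1 the LNCaP groups overlapped and PC3 lay below them, and with total counts the LNCaP groups were apart. AGMAT was highest in PC3, and its LNCaP groups overlapped.

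PC3 cells had less RNA of ODC1, AMD1, SMS and the breakdown gene SAT1 than androgen-treated LNCaP cells, and more of SMOX, AZIN1 and AGMAT. This comparison of the lines, again in edgeR on 6 libraries, called 3 of 10 polyamine genes higher and 4 lower in PC3, against 24.0% and 22.1% of all 12541 genes. On the adjusted p alone 9 of the 10 passed, 3 higher and 6 lower, where 84.0% of all genes did. The median log2 fold change of the 10 genes was -0.90, and of all genes 0.04. With vehicle-treated LNCaP as the other arm, 3 members of the pathway were called higher and 1 lower in PC3, beside 22.2% and 21.0% of all 12686 genes. There too 9 of 10 passed the adjusted p, 4 higher and 5 lower, where 83.4% of all genes did. The median was -0.04 over the 10 genes and 0.03 over all genes. Both medians were the same with AGMAT set to the lower end of its counting interval. They could not have moved, since AGMAT stayed the highest of the 10 genes, so no conclusion is drawn from this. AGMAT passed the filter only through PC3, where it is high, so its call is part of these counts but not support for them. The 3 higher calls of 10 are near the shares over all genes, 24.0% and 22.2%. The 1 lower call against vehicle is under its share of 21.0%, and the 4 lower calls against androgen stand beside 22.1%. With 10 genes, no direction is read from these counts. Both comparisons use the same PC3 libraries, and the androgen-treated and vehicle-treated libraries also enter the androgen comparison, so the values are set side by side only.

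In PC3, ODC1 had 1313, 1232 and 1226 CPM, below all androgen-treated and above all vehicle-treated libraries. Its log2 fold change was -1.44 against androgen-treated LNCaP (SE 0.09, adjusted p = 1.66e-06 from edgeR) and 0.78 against vehicle-treated LNCaP (SE 0.07, adjusted p = 1.12e-05). The sign of the ODC1 difference between the lines therefore depended on which LNCaP group was taken, and only the first difference reached 2-fold. AMD1 had 143, 156 and 153 CPM in PC3, far below both LNCaP groups. It was 12.9-fold lower than with androgen (log2 fold change -3.69, SE 0.08, adjusted p = 1.69e-08 from edgeR) and 4.87-fold lower than with vehicle (-2.28, SE 0.07, adjusted p = 6.00e-08). AMD1 was the one polyamine gene called lower in PC3 against both LNCaP groups.

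SMS had 93.4, 117 and 71.4 CPM in PC3, with the widest relative spread of the 10 polyamine genes in that group, a coefficient of variation of 24.1%. All 3 values lay below those of both LNCaP groups, the vehicle libraries by a small margin. The log2 fold change of SMS was -3.68 against androgen (SE 0.18, adjusted p = 5.01e-07 from edgeR), 12.8-fold lower, and -0.61 against vehicle (SE 0.16, adjusted p = 0.0066). SRM had 188, 202 and 192 CPM in PC3 and did not pass the adjusted p in either comparison. Its log2 fold change was -0.11 against androgen (SE 0.06, adjusted p = 0.146 from edgeR) and 0.14 against vehicle (SE 0.06, adjusted p = 0.0539). Without PC3 replicate 1 or replicate 3 the value against androgen turned to 0.035 or 0.0091, so no direction is given for SRM between these groups.

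AGMAT, named for agmatinase, the enzyme that releases putrescine from agmatine, lies on chromosome 1 (15571699 to 15585051, minus strand). It had 106, 102 and 84 counts in PC3, 7, 1 and 2 counts in androgen-treated LNCaP and 0, 1 and 1 counts in vehicle-treated LNCaP. All PC3 libraries were above all LNCaP libraries, and most LNCaP values were at or under the limit of a count of 0. Androgen replicate 1, with 7 counts, was also the library with the highest share of PC3 markers, and the part of this was not tested. Over summed counts the rate in PC3 was 26.3 times that with androgen (95% exact interval 14.1 to 55.5) and 108 times that with vehicle (29.7 to 898), intervals that cover counting error only. Without androgen replicate 1 the first rate was 56.5 times (19.2 to 276), and without vehicle replicate 1, which had 0 counts, the second was 71.9 times (19.7 to 597). In PC3 itself AGMAT reached only 4.04 ± 0.660 CPM (SD, n = 3). AGMAT was called in both comparisons (adjusted p = 1.21e-05 and 1.91e-06 from edgeR), and the size of the fitted fold change depends on the prior count. On the log2 scale the fitted values were 4.59 and 6.63, and with counts that ignore strand they were 3.96 and 5.22.

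SAT1 had 76.5, 71.0 and 77.8 CPM in PC3, close under the vehicle-treated libraries and far under the androgen-treated ones. It was 16.1-fold lower than with androgen (log2 fold change -4.01, SE 0.08, adjusted p = 1.29e-08 from edgeR). Against vehicle the log2 fold change was -0.23 (SE 0.07, adjusted p = 0.0141). SMOX went the other way, with 80.9, 60.0 and 80.6 CPM in PC3. Replicate 2 was the lowest PC3 library, yet every PC3 library was above every LNCaP library. SMOX was 7.37-fold higher than with androgen (log2 fold change 2.88, SE 0.14, adjusted p = 4.57e-07 from edgeR) and 9.72-fold higher than with vehicle (3.28, SE 0.17, adjusted p = 7.95e-07). PAOX had 3.46 to 4.41 CPM in PC3, below all LNCaP libraries. Its log2 fold change was -0.88 against androgen (SE 0.14, adjusted p = 0.000425 from edgeR) and -0.58 against vehicle (SE 0.14, adjusted p = 0.00582), both under 2-fold.

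OAZ1 and AZIN1 moved in opposite directions between the lines. OAZ1 had 513, 482 and 498 CPM in PC3, below every LNCaP library. Its log2 fold change was -0.91 against androgen (SE 0.07, adjusted p = 5.03e-06 from edgeR) and -0.99 against vehicle (SE 0.06, adjusted p = 2.48e-06), both just short of 2-fold. Without androgen replicate 2 or 3 the first value was -1.02, and without any one vehicle library the second was -1.07 to -1.10, so OAZ1 was then called. In a fit of all 9 libraries the second was -1.01 and also called. AZIN1 had 661, 605 and 515 CPM in PC3, above every LNCaP library. AZIN1 was 2.61-fold higher than with androgen (log2 fold change 1.38, SE 0.10, adjusted p = 4.49e-06 from edgeR) and 2.24-fold higher than with vehicle (1.16, SE 0.10, adjusted p = 9.95e-06).

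**Figure D2:**
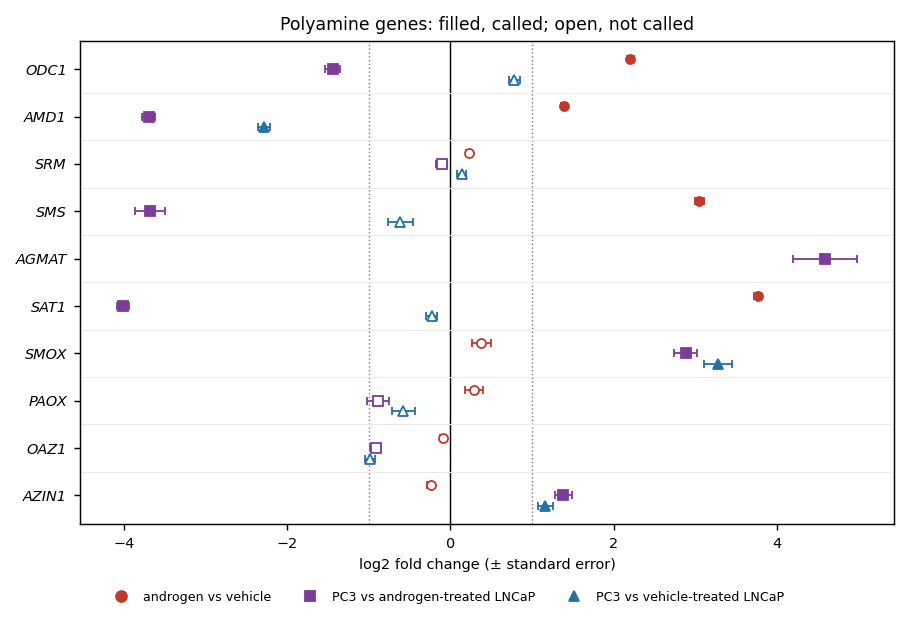
log2 fold change with its standard error for the 10 polyamine genes in the 3 comparisons (marker shape and colour), with dotted lines at a 2-fold change. Filled markers were called. ODC1, AMD1, SMS and SAT1 lie to the right with androgen, and SMOX and AZIN1 lie to the right for PC3 against either LNCaP group. AGMAT is drawn only against androgen-treated LNCaP, since the vehicle-treated libraries held 0 to 1 counts.

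To compare genes with each other, CPM were divided by the merged exon length in kilobases. On this scale ODC1 was the most abundant polyamine gene in PC3, at 380 ± 14.8 CPM per kb, and with androgen, at 1023 ± 61.4 (SD, n = 3 each). With vehicle OAZ1 came first, at 283 ± 7.05 CPM per kb, ahead of ODC1 at 218 ± 1.54 (SD, n = 3 each). SMS and SAT1 came next after ODC1 with androgen, at 559 ± 36.6 and 483 ± 7.85 CPM per kb (SD, n = 3 each). Their order was the reverse when the length of the longest transcript was used, with 699 for SMS and 1057 CPM per kb for SAT1. AMD1 held place 5 of 10 with androgen and place 8 in PC3, at 190 ± 4.31 and 14.8 ± 0.670 CPM per kb (SD, n = 3 each). AGMAT was last in every group.

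**Figure D3:**
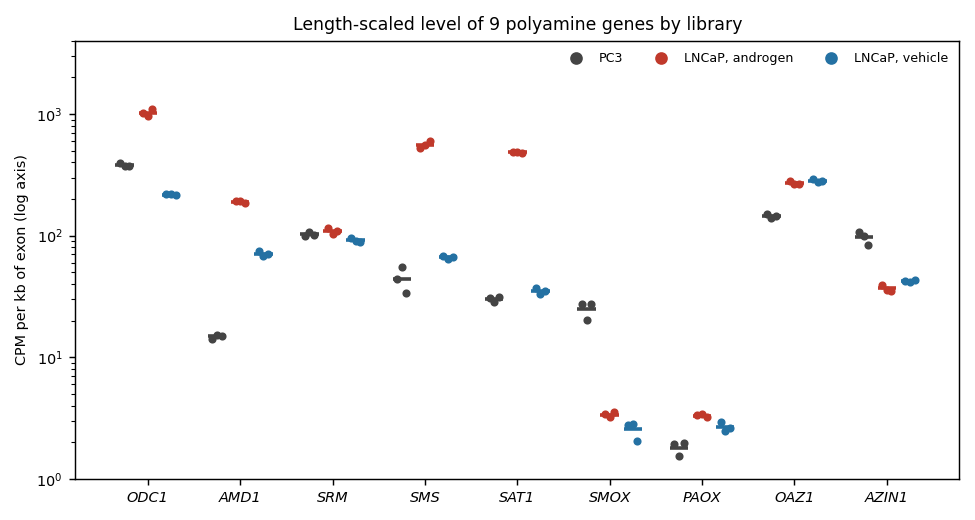
Length-scaled level (CPM per kb of merged exon, log axis) of 9 polyamine genes in each library, with a short line at the group mean. AGMAT is left out because 1 library had 0 counts. ODC1 leads in PC3 and androgen-treated libraries, and SMOX and PAOX are lowest in both LNCaP groups.

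A ratio of genes within a library does not depend on the scaling between libraries, while a sum does. Sums and ratios are given as descriptions. The 10 genes summed to 8886 to 9296 CPM with androgen, against 2821 to 3078 CPM in PC3 and 3020 to 3173 CPM with vehicle. The 4 synthesis genes summed to 6527 to 6967 CPM with androgen, 1642 to 1738 CPM in PC3 and 1721 to 1811 CPM with vehicle. With TMM factors the synthesis sums of PC3 and vehicle-treated libraries overlapped, although AMD1 made up less and ODC1 more of the sum in PC3. With scaling by total counts they were apart. Every vehicle-treated library then lay above every PC3 library, for the 4 synthesis genes and for all 10 genes. On the length-scaled level, ODC1 per OAZ1 was 3.60 to 4.08 with androgen, 2.56 to 2.66 in PC3 and 0.755 to 0.791 with vehicle. OAZ1 RNA thus exceeded ODC1 RNA in the vehicle-treated libraries and in no other. AZIN1 per OAZ1 was 0.579 to 0.722 in PC3 and 0.132 to 0.154 over the LNCaP libraries. SAT1 per SMOX was 135 to 152 with androgen, 11.7 to 16.9 with vehicle and 1.12 to 1.41 in PC3. With the longest transcript as length these ratios were 233 to 263, 20.2 to 29.2 and 1.94 to 2.42.

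**Figure D4:**
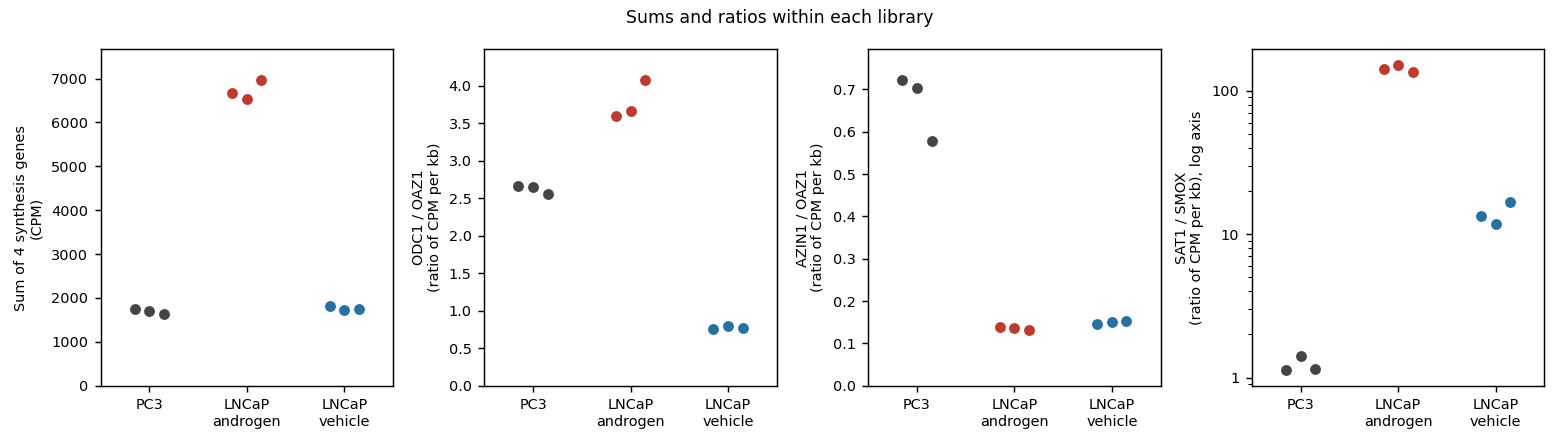
Sum of the 4 synthesis genes in CPM and ratios of length-scaled levels (CPM per kb) within each library, which is 1 point. The first 3 axes are linear from 0 and the SAT1 per SMOX axis is logarithmic. The synthesis sum is high only in the androgen-treated libraries, and SAT1 per SMOX differs between all 3 groups.

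Beyond the 10 genes, 35 other genes of the wider pathway were read in 4 lists. 25 of them passed the filter in each comparison. With androgen 2 were called higher and 1 lower, and in PC3 2 were called higher and 6 lower, against androgen-treated and against vehicle-treated LNCaP alike. Over all genes tested the called shares were 6.54% higher and 7.49% lower with androgen, 24.0% and 22.1% for PC3 against androgen and 22.2% and 21.0% against vehicle. The 6 lower calls of 25 are thus near the background. In each comparison 3 of the 6, OAZ3, SLC22A3 and SLC12A8, passed the filter only through LNCaP, where they are high, so these counts give no support to a direction. The medians of the 25 log2 fold changes were 0.15, -0.13 and -0.17, beside -0.01, 0.04 and 0.03 over all genes. Of the supply and paralog genes, 5 of 8 were tested. ARG2, a mitochondrial arginase that makes ornithine, had 267 ± 16.8 CPM with androgen, 107 ± 2.01 with vehicle and 5.52 ± 0.908 in PC3 (SD, n = 3 each). The log2 fold change of ARG2 was 1.29 with androgen, -5.61 for PC3 against androgen and -4.30 against vehicle, each called (adjusted p = 1.45e-10, 2.02e-08 and 3.62e-08 from edgeR). OAT, which converts ornithine to a precursor of proline and glutamate, had 26.1 ± 2.88, 10.1 ± 0.210 and 89.8 ± 5.24 CPM in the same order. It was called in all 3 comparisons, with log2 fold changes of 1.34, 1.77 and 3.13. OAZ3, a further antizyme, was called lower in PC3 (-4.19 and -3.27, and -2.98 and -2.16 with counts that ignore strand). The acetyltransferase paralog SAT2 was called lower only against androgen (-1.43), with -0.91 against vehicle. Without vehicle replicate 1 or 2 SAT2 was called there too (-1.01 and -1.03), and without androgen replicate 2 OAZ3 was called higher with androgen (1.01, from 0.90).

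In the methionine cycle and salvage list, which recycles the by-product of aminopropyl transfer, 8 of 9 genes were tested. With androgen 0 of them were called by edgeR or DESeq2, with 6 higher and 0 lower on the adjusted p, which 74.9% of all genes passed, and the same at an unadjusted p under 0.05. The salvage gene ENOPH1 was called lower in PC3, by -1.73 and -1.59 on the log2 scale, and APIP was called higher against vehicle (1.14) but not against androgen (0.33). MAT2A, which makes the methyl donor S-adenosylmethionine, had 0.85 against vehicle and was called without PC3 replicate 1 (1.04). In the hypusine list, whose enzymes modify EIF5A with spermidine, 0 of 4 tested genes were called in any comparison by edgeR or DESeq2. There 2 passed the adjusted p with androgen and 1 in each comparison of the lines, where 74.9%, 84.0% and 83.4% of all genes passed, and 3, 1 and 1 had an unadjusted p under 0.05.

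Of 13 transport genes, 8 were tested. SLC22A3, an organic cation transporter that carries polyamines, had 2, 0 and 3 counts in PC3, 3141 to 3532 with androgen and 4618 to 4952 with vehicle. Over summed counts its rate was 2252 times that of PC3 with androgen (95% exact interval 965 to 6936) and 3901 times with vehicle (1671 to 12016), counting error only. SLC18B1, a vesicular polyamine transporter, was called lower with androgen (log2 fold change -1.80) and higher in PC3 against androgen (1.50), with -0.28 against vehicle. SLC12A8 was called lower in PC3 in both comparisons (-3.06 and -3.04), with 1 of 3 PC3 libraries above the 3 CPM of the filter, and the cationic amino acid transporter SLC7A2 only against vehicle (-1.76), with -0.83 against androgen. SLC7A2 was also called lower with androgen when androgen replicate 2 was left out (-1.01, from -0.95). SLC3A2, the shared heavy chain of several amino acid transporters, was near 2-fold in PC3 (0.82 and 0.99) and was called without PC3 replicate 2 in both comparisons (1.00 and 1.14) and without PC3 replicate 1 or 3 against vehicle (1.04 and 1.06). MYC, a known activator of ODC1, had 130 ± 14.1 CPM with androgen, 193 ± 7.21 with vehicle and 235 ± 9.10 in PC3 (SD, n = 3 each). The log2 fold change of MYC was -0.61 with androgen, 0.85 for PC3 against androgen and 0.26 against vehicle (adjusted p = 1.53e-06, 3.85e-05 and 0.00431 from edgeR). None of these reached 2-fold, and without PC3 replicate 2 the second was 1.00 and called. ODC1, whose E-box stretch is shown above, was higher with androgen while MYC was lower, and the relation of these values was not tested.

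**Figure D5:**
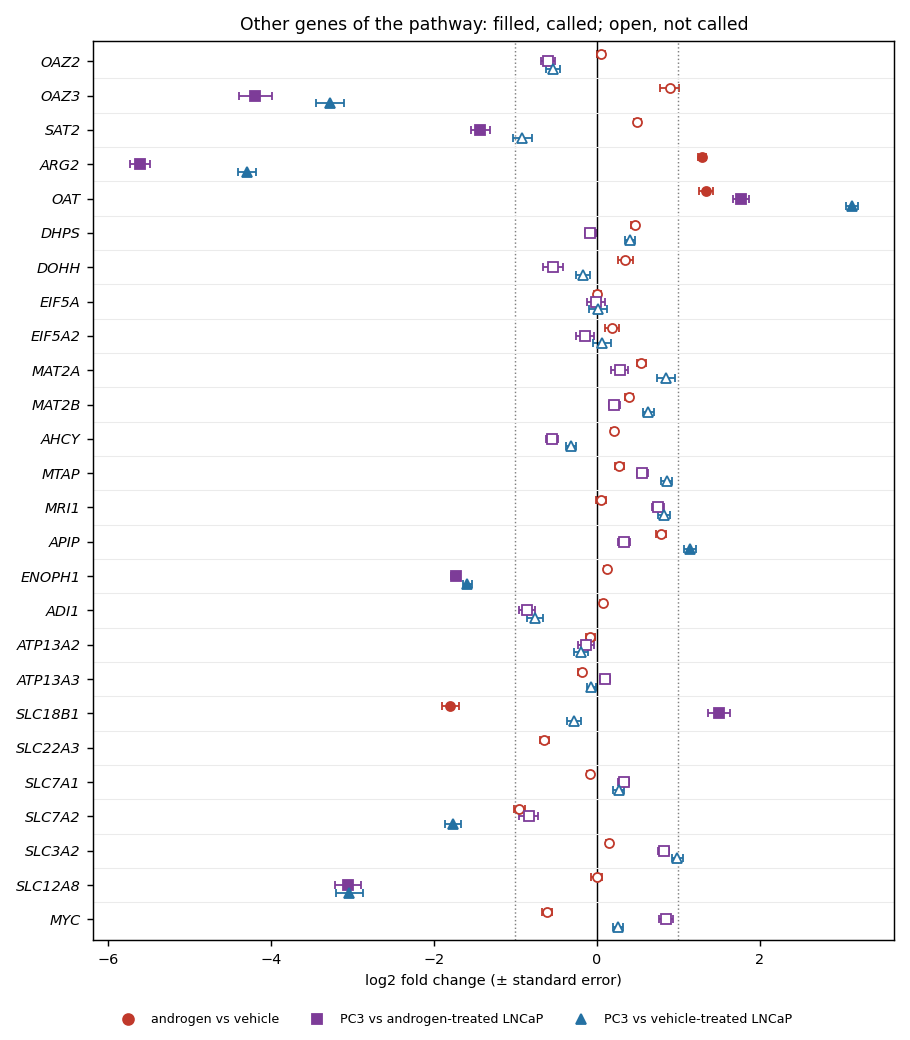
log2 fold change with its standard error for the 25 other pathway genes that were tested and MYC, with dotted lines at a 2-fold change. Marker shape and colour give the comparison, and filled markers were called. SLC22A3 is drawn only for androgen because PC3 libraries held 0 to 3 counts. ARG2, OAZ3 and SLC12A8 lie far to the left for PC3, and OAT lies to the right in all 3 comparisons.

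The genes whose pattern over the 9 libraries was most like that of the polyamine genes with the widest range were read by Pearson's r of log2 CPM among 12843 genes. The libraries form 3 groups, so r mostly reflects the group means, and no p is given. For SAT1 the nearest were MBOAT2 (r = 0.9989), TNFRSF10B (0.9985) and AP2S1 (0.9985), and 59 genes had r above 0.99. For SMS they were WNT7B (0.9997), DBI (0.9987) and SELENOK (0.9964), with 36 genes above 0.99. For AGMAT they were KIFC3 (0.9942), CHSY3 (0.9940) and ACHE (0.9935), with 26 genes above 0.99. AGMAT had only 0 to 7 counts in the LNCaP libraries. Its log2 CPM there, and so its range and r, depend on the prior count of 2 added before taking the log.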

How the data were processed

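RNA was sequenced from 9 libraries in 3 groups. According to the submitters' processing notes, the authors used cutadapt 4.1, STAR 2.7.7a and UMI-tools 1.1.2 with GRCh38, while the supplement of the study gives other versions of cutadapt and STAR. The authors deposited counts, whole numbers of reads per gene without normalization, and all 253944 values of their table equal the forward-strand column of STAR. Of the library columns, 0 were left out.

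Genes with more than 3 CPM in at least 3 libraries of a fit were kept. edgeR 4.0.16 (R 4.3.3) gave TMM factors and quasi-likelihood tests, fitted on the 6 libraries of each comparison, with Benjamini-Hochberg adjustment over all genes tested. The study's own edgeR model was a likelihood ratio test that held a batch, which its text does not name, so no batch entered here. Standard errors are the log2 fold change divided by the root of the F statistic. Gene positions and lengths come from GENCODE 44.

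The genes and lists were chosen by pathway role, with earlier results of these data known. All 10 polyamine genes are named in every comparison, and other pathway genes where called in any comparison, with MYC. A marker gene and a sequence motif that were also read are not reported here. The fits were also run on simulated counts in which few genes changed. Many more genes were called between the lines, so no conclusion on those comparisons is drawn from the simulation. Groups share replicate numbers. Over 10910 genes, the deviations of androgen-treated and vehicle-treated libraries from their group means were correlated. Pearson's r was 0.16, 0.23 and 0.20 where the numbers matched and -0.25 to 0.09 where they did not. A PC3 and an androgen-treated library with different numbers reached 0.22. With 3 libraries per group, whether the numbers pair the LNCaP libraries therefore cannot be told, and the main fits use no pairing. Alternatives were DESeq2 1.42.0 (size factors, Wald test), the likelihood ratio test, a replicate block, other filters and call rules, unstranded counts, all 9 libraries in one fit, leaving out each library, total-count scaling and the longest transcript as length.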

Additional observations from a re-analysis of the deposited data

Results flagged for a closer look

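Reads on the strand opposite to SMS, which the comparisons do not use, made up 0.220% or more of its reads in every PC3 library, above all vehicle-treated libraries. The shares were 0.383%, 0.308% and 0.220% in PC3, 0.144%, 0.194% and 0.211% with vehicle and 0.154% to 0.330% with androgen. They rest on 4 to 9 reads in each PC3 library and 4 to 6 in each vehicle-treated one, and the difference was not tested. The lowest PC3 share, 0.220%, and the highest vehicle share, 0.211%, rest on 4 and 6 reads and are nearly equal. Over all genes the opposite-strand share was also higher in PC3, at 2.72% to 3.06%, than with vehicle, at 2.33% to 2.57%. With androgen it was 2.45% to 2.67%.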

How the results depend on the processing

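With no filter on low counts, 2941 genes were called for androgen, 9147 for PC3 against androgen-treated and 8713 for PC3 against vehicle-treated LNCaP, where 1641, 5773 and 5485 were called in the report. On the adjusted p alone 8763, 10530 and 10577 genes passed, and 9 polyamine genes in each comparison. With a replicate block 1638, 5756 and 5495 genes were called, and the calls of the polyamine genes stayed at 4, 7 and 4. Same-numbered libraries correlated with -0.06, 0.05 and -0.19 for PC3 and androgen and with 0.07, -0.19 and -0.02 for PC3 and vehicle, so these numbers were not taken as pairs. SRM against androgen reversed to 0.035 without PC3 replicate 1 and to 0.0091 without PC3 replicate 3 (range -0.233 to 0.035 over libraries left out), and the cause was not tested. Leaving out a library gave 4 polyamine calls for androgen, 6 to 8 for PC3 against androgen and 3 to 5 against vehicle. These moves were AGMAT, which the filter left out without any 1 PC3 library, and OAZ1, near 2-fold. The AGMAT fit was also missing with at least 10 counts in every library. Levels are limited by depth in AGMAT, and length-scaled levels by the choice of transcript.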
